A study of Mus musculus with 4 samples.

Results

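Mitochondrial carriers are membrane proteins that move nucleotides, phosphate, amino acids, carboxylates, cofactors, iron and protons, mostly across the inner mitochondrial membrane. The genes described here are those of the Slc25a series together with Ucp1, Ucp2 and Ucp3, chosen by gene symbol alone. They number 47 of the 20377 genes in the deposited expression table, and 46 of them were listed above 0 in at least 1 library. All libraries belong to a single group, called rGBC2, with 4 replicates. The cells began as primary cells of the gallbladder, a biliary organ, taken from mice at 8 weeks of age on a C57BL/6 background and expanded in culture. The mice carried B6.Cg-Tg(Ins1-EGFP)1Hara/J, named MIP-GFP, in which the Ins1 promoter drives green fluorescent protein. Pdx1, Ngn3, Mafa and PAX6, which are transcription factors of the endocrine pancreas, were introduced with chemical compounds that the labels do not name, over 10 days. The GFP-positive cells were then sorted, so the Ins1 reporter was part of how the cells were selected. Whether the 4 libraries came from separate mice or cultures is not stated. The p-values thus measure the spread between these libraries, part of which may be technical.

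No unreprogrammed gallbladder or islet library was compared here, so the values below are levels within reprogrammed cells and not changes on reprogramming. In pooled sorted cells, fewer cells expressing a gene and less RNA per cell cannot be told apart.

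Carrier proteins are built from repeats of a short domain and are made in the cytosol. Most are then inserted into the inner membrane by dedicated import machinery, whereas Slc25a17 is peroxisomal and Slc25a46 lies in the outer membrane. In pancreatic β cells, glucose is oxidised in mitochondria and the resulting ATP leaves through the adenine nucleotide exchangers to close potassium channels at the cell surface. Shuttles of citrate, malate and aspartate carry reducing power between cytosol and mitochondria in the same cells. Uncoupling protein 2, the product of Ucp2, has been studied in β cells as a brake on this coupling.

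Levels are RPKM, reads per kilobase of transcript scaled to the mapped reads of the library, a unit that allows genes of different length to be compared. The depth estimated from the spacing of low RPKM values ran between 22.15 and 32.8 M reads (M, 1e6), at which 3 reads on a 1 kb transcript amount to 0.0915 to 0.135 RPKM. Replicates 3 and 4 stood apart from replicates 1 and 2. Between replicates 3 and 4, 41.1% of 13446 genes with enough estimated reads differed beyond the 95% limit of sampling noise. In the other pairs of libraries the share was 74.2% to 83.3%. The median chi-square per gene was 2.44 for replicates 3 and 4 and 18.8 to 48.7 for the other pairs. These shares and chi-squares rest on the estimated depth and would change at a multiple of it. Replicates 3 and 4 were kept as separate samples because they are labelled so, and these values do not show whether they came from separate cells. Results that change when they are averaged are given with that value. Y-linked Eif2s3y had 48.5 and 44.7 RPKM in replicates 1 and 2, and Y-linked Ddx3y had 26.85 and 38.16 RPKM there. Both were listed at 0 in replicates 3 and 4. The spread between libraries thus includes a difference in Y-linked transcripts, and how far the carrier levels differ with it was not tested. Ins1 had 107, 222, 481 and 523 RPKM in replicates 1 to 4, and the biliary keratin gene Krt7 had 466, 482, 802 and 789 RPKM.

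The adenine nucleotide exchangers Slc25a4 and Slc25a5 encode near-copies of the same ADP/ATP carrier. Slc25a4 held a mean of 18.2% of summed carrier RPKM, the largest share of any member, and Slc25a5 held 6.36%. Slc25a4 is the form of heart and skeletal muscle, and Slc25a5 is the form of many dividing cells. Their coding sequences, 897 bases each, were 77.5% identical, with a longest shared run of 20 bases. The stretch around that run, coding bases 272 to 391 read 5′ to 3′ from the GENCODE M21 transcripts, is shown so that the similarity can be seen. Capitals mark the 25 of 120 bases that differ.
Slc25a5: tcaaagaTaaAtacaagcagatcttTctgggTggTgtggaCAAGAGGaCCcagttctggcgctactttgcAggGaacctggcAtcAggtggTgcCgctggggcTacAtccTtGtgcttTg
Slc25a4: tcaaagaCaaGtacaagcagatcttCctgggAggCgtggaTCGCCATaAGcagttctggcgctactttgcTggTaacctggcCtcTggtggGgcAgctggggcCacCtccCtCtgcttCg
No 50-base window of the Slc25a4 transcript occurred in another annotated gene. Of the 1191 such windows of Slc25a5, 46.6% occurred in 9 other genes, all annotated as pseudogenes, with 29.1% shared with Gm5560. How reads that fit several places were counted is not given in the sources used here, so the level of Slc25a5 is uncertain. Smaller shares of the windows were found elsewhere for Slc25a33, at 12.6%, Slc25a36, at 11.8%, and Slc25a40, at 10.3%. The share was 9.46% for Slc25a25, 9.07% for Slc25a10, 8.07% for Slc25a37 and 7.52% for Slc25a46. For Ucp2 it was 6.50%, with its neighbour Dnajb13. The remaining members had lower shares or none.

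Among the 46 testable carriers, 35 were above 1 RPKM, 6 were below it and 5 could not be placed on either side (limma on log2(RPKM + 1), two-sided, Benjamini-Hochberg adjusted over 16919 genes). The 35 above make up 76.1% of the carriers tested, against 65.0% of all genes tested. The 6 below make up 13.04%, against 26.1% of all genes tested. Over all 47 carriers the median of the mean levels was 12.5 RPKM, and over the 46 tested it was 13.7 RPKM, against 7.38 RPKM over all genes tested. At 10 RPKM or more stood 27 of the 47 carriers, or 57.4%, against 44.3% of all genes tested. Summed over the family, the carriers reached 1574, 1532, 1656 and 1713 RPKM in replicates 1 to 4. That is 0.302 ± 0.0164% of all summed RPKM (SD, n = 4).

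**Figure D1:**
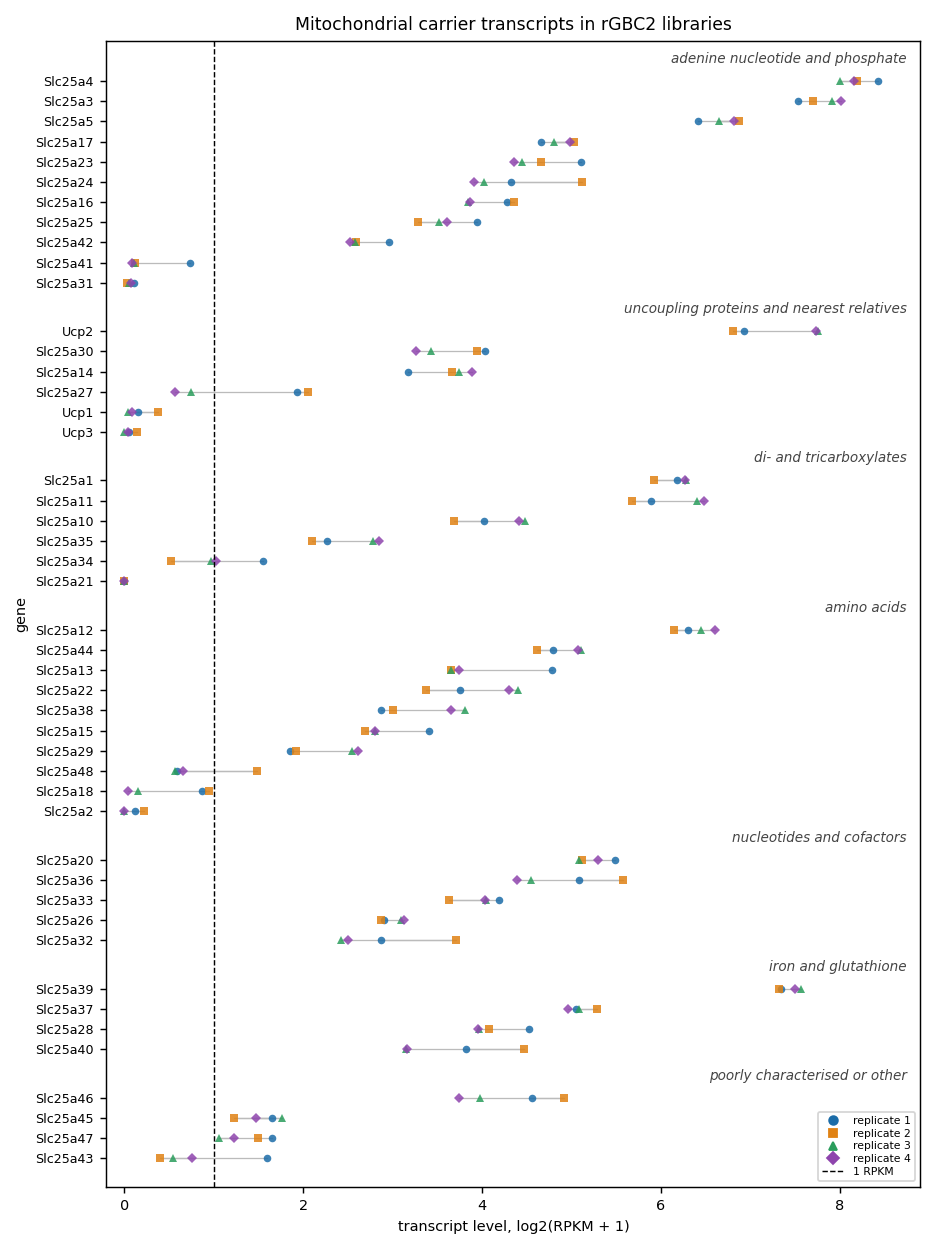
Level of 46 of the 47 carriers, log2(RPKM + 1), in the 4 rGBC2 replicates (colours and shapes), grouped by what the protein carries; the grey line joins the lowest and highest replicate and the dashed line marks 1 RPKM. Slc25a4 and Slc25a3 lie farthest right, and Ucp1, Ucp3, Slc25a2, Slc25a18, Slc25a21, Slc25a31 and Slc25a41 lie left of the dashed line in every replicate.

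The adenine nucleotide and phosphate carriers held the largest summed level of the transport groups, at 729, 738, 686 and 746 RPKM in replicates 1 to 4. Of its 11 genes, 9 were above 1 RPKM and 2 were below. Over all genes tested, 65.0% were above and 26.1% below, shares that also stand beside the counts of the other transport groups. Slc25a4 had 342.75, 292.33, 255.94 and 283.94 RPKM, a mean of 294 ± 36.2 RPKM (SD, n = 4), and ranked 209 among all genes by mean level. It lies on chromosome 8 from 47292697 to 47296363 on the minus strand (mm9). Slc25a3, which imports the phosphate needed for ATP synthesis, had 184.7, 206.48, 239.62 and 256.58 RPKM (222 ± 32.3, SD, n = 4). It lies on chromosome 10 from 90579322 to 90586708 on the minus strand (mm9). Slc25a4 was the highest carrier and Slc25a3 the second highest in each of the 4 replicates.

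Slc25a5 had 84.26, 116.08, 98.93 and 111.83 RPKM, with the uncertainty from its pseudogenes given above, and lies on chromosome X from 34335646 to 34338801 on the plus strand (mm9). All 3 of these genes exceeded 1 RPKM, with limma adjusted p of 2.29e-07 for Slc25a4 and Slc25a3 and 2.30e-07 for Slc25a5. Slc25a31, the ADP/ATP exchanger of male germ cells, had 0.08, 0.02, 0.04 and 0.05 RPKM and was below 1 RPKM (limma adjusted p = 3.47e-07).

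The calcium-regulated exchangers of ATP-magnesium for phosphate adjust the size of the matrix nucleotide pool. Slc25a23 had 33.37, 24.3, 20.87 and 19.55 RPKM, and Slc25a24 had 19.04, 33.63, 15.22 and 14.02 RPKM. Replicate 2 is the highest for Slc25a24, and there alone Slc25a24 exceeded Slc25a23. Slc25a25, another of these genes, averaged 11.2 ± 2.38 RPKM (SD, n = 4). Slc25a41, a relative that lacks the calcium-binding part, had 0.66, 0.09, 0.08 and 0.06 RPKM and was below 1 RPKM (limma adjusted p = 0.00156); its mean of 0.223 RPKM was 0.0767 RPKM without replicate 1. Slc25a17, the peroxisomal member, averaged 28.4 ± 3.39 RPKM, and the coenzyme A carriers Slc25a16 and Slc25a42 averaged 16.2 ± 3.23 and 5.38 ± 0.946 RPKM (SD, n = 4 each).

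Among the uncoupling proteins, Ucp2 was abundant while Ucp1 and Ucp3 were close to 0. Ucp2 had 120.65, 111.22, 214.6 and 211.7 RPKM (165 ± 56.3, SD, n = 4; limma adjusted p = 1.02e-06 against 1 RPKM) and lies on chromosome 7 from 107641853 to 107650682 on the plus strand (mm9). Its mean over replicates 3 and 4 was 1.84 times that over replicates 1 and 2. Replicates 3 and 4 both exceeded replicates 1 and 2, as in 29.7% of all genes with a mean of at least 1 RPKM.

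Ucp1, the heat-producing uncoupler of brown fat, had 0.11, 0.3, 0.03 and 0.06 RPKM (limma adjusted p = 3.32e-05, below 1 RPKM); its mean without replicate 2 was 0.0667 RPKM, 0.533 times that over all 4. Ucp3, the skeletal muscle form, had 0.04 and 0.1 RPKM in replicates 1 and 2, was listed at 0 in replicate 3 and had 0.03 RPKM in replicate 4 (limma adjusted p = 7.27e-07, below 1 RPKM). Both were thus under 1 RPKM in every library. The nearest relatives Slc25a30 and Slc25a14 averaged 12.02 ± 3.31 and 11.5 ± 2.45 RPKM (SD, n = 4 each). Slc25a27, a relative known from brain, had 2.81, 3.15, 0.67 and 0.48 RPKM and could not be placed on either side of 1 RPKM (limma adjusted p = 0.349). It is above 1 RPKM in replicates 1 and 2 and under it in replicates 3 and 4.

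The carriers of di- and tricarboxylates include those of the citrate and malate shuttles. Of the 6 genes, 4 were above 1 RPKM, 1 was on neither side and 1 was listed at 0. Over all genes tested, 65.0% were above 1 RPKM. Slc25a1, which exports citrate for fatty acid synthesis, had 71.69, 59.45, 76.86 and 75.91 RPKM (71.0 ± 8.01, SD, n = 4). Slc25a11, which exchanges oxoglutarate for malate, had 58.06, 50.15, 83.42 and 88.21 RPKM. Slc25a10, the dicarboxylate exchanger, had 15.18, 11.89, 21.31 and 20.23 RPKM. Replicates 3 and 4 exceeded replicates 1 and 2 for all 3 genes, an order also found in 29.7% of all genes with a mean of at least 1 RPKM. Slc25a35 averaged 4.78 ± 1.46 RPKM (SD, n = 4). Slc25a34 had 1.93, 0.43, 0.96 and 1.04 RPKM (limma adjusted p = 0.930, neither side), and its difference from 1 RPKM was 0.017 on the log2(RPKM + 1) scale with all 4 libraries and -0.16 without replicate 1. Slc25a21, which carries oxoadipate in lysine breakdown, was listed at 0 in all 4 libraries.

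Of the 10 amino acid carriers, 7 were above 1 RPKM, 2 below and 1 on neither side. These counts are near the shares over all genes tested, 65.0% above and 26.1% below. Slc25a12, the aspartate-glutamate exchanger known as aralar that completes the malate-aspartate shuttle, had 77.82, 69.86, 85.94 and 96.3 RPKM (82.5 ± 11.3, SD, n = 4) and ranked 6 among the carriers in every replicate. Slc25a13, the form called citrin that is best known from liver, had 26.43, 11.56, 11.59 and 12.33 RPKM. Its replicate 1 stands well above the other 3, which lie close together. Slc25a44, a carrier of branched-chain amino acids, had 26.74, 23.4, 33.46 and 32.72 RPKM (29.1 ± 4.84, SD, n = 4).

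The glutamate carrier gene Slc25a22 had 12.51, 9.37, 20.07 and 18.67 RPKM, whereas its relative Slc25a18 had 0.82, 0.93, 0.11 and 0.03 RPKM. Slc25a18 was below 1 RPKM (limma adjusted p = 0.0395), but its adjusted p was 0.104 without replicate 3, 0.103 without replicate 4 and 0.109 with replicates 3 and 4 averaged. The ornithine carrier gene Slc25a15 had 9.59, 5.48, 5.98 and 5.97 RPKM, highest in replicate 1. Its near-copy Slc25a2 had 0.09 and 0.16 RPKM in replicates 1 and 2 and was listed at 0 in replicates 3 and 4 (limma adjusted p = 4.84e-06, below 1 RPKM).

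Slc25a38, which brings glycine to haem synthesis, averaged 9.46 ± 3.32 RPKM, and the basic amino acid carrier gene Slc25a29 averaged 3.84 ± 1.32 RPKM (SD, n = 4 each). Slc25a48 had 0.5, 1.79, 0.48 and 0.58 RPKM and fell on neither side of 1 RPKM (limma adjusted p = 0.362). Without replicate 2 its mean was 0.52 RPKM, against 0.838 RPKM with it, and it was then below 1 RPKM (limma adjusted p = 0.00186).

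All 6 carriers of nucleotides and cofactors were above 1 RPKM. Slc25a20, which exchanges carnitine for acylcarnitine in fatty acid oxidation, had 43.75, 33.67, 32.87 and 38.38 RPKM. Slc25a36, a pyrimidine nucleotide carrier gene, had 33, 46.76, 22.37 and 19.91 RPKM, and its mean over replicates 3 and 4 was 0.530 times that over replicates 1 and 2. Its relative Slc25a33 had 17.28, 11.33, 15.52 and 15.37 RPKM. Replicate 2 is thus the highest for Slc25a36 and the lowest for Slc25a33. The folate carrier gene Slc25a32 had 6.33, 12.08, 4.37 and 4.64 RPKM. Slc25a26, the importer of the methyl donor S-adenosylmethionine, averaged 7.02 ± 0.712 RPKM (SD, n = 4).

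The 4 carriers of iron and glutathione were all above 1 RPKM, with a median of the mean levels of 25.03 RPKM. Slc25a39, needed for glutathione import into mitochondria, had 161.11, 158.61, 188.78 and 180.37 RPKM (172 ± 14.7, SD, n = 4) and lies on chromosome 11 from 102264294 to 102268831 on the minus strand (mm9). Its relative Slc25a40 had 13.13, 21.11, 7.88 and 7.93 RPKM, high in replicate 2 and low in replicates 3 and 4. The mitoferrin genes, whose products import iron, differed less: Slc25a37, the erythroid form, had 32.21, 37.91, 33.01 and 30.12 RPKM. Slc25a28, the widely expressed form, had 22.04, 15.85, 14.62 and 14.48 RPKM.

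Of the 4 poorly characterised members, 2 were above 1 RPKM and 2 were on neither side. Slc25a46, an outer-membrane member involved in mitochondrial shape, averaged 19.7 ± 7.70 RPKM (SD, n = 4). Slc25a45 averaged 1.92 ± 0.462 RPKM and was the lowest member above 1 RPKM (limma adjusted p = 0.0136). Its adjusted p was 0.0682 without replicate 3 and 0.0540 with replicates 3 and 4 averaged. Slc25a47, known from liver, had 2.14, 1.81, 1.08 and 1.34 RPKM, above 1 RPKM in every library with a limma adjusted p of 0.0522. Slc25a43 had 2.02, 0.32, 0.46 and 0.69 RPKM (limma adjusted p = 0.444), and without replicate 1 its mean was 0.49 RPKM, against 0.873 RPKM with it, and it was below 1 RPKM (limma adjusted p = 0.00778).

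A few genes made up most of the family's summed level. Slc25a4 contributed 18.2 ± 2.81%, Slc25a3 13.7 ± 1.43%, Slc25a39 10.6 ± 0.529% and Ucp2 10.1 ± 3.02% of summed carrier RPKM (SD, n = 4). Those 4 genes together held 52.6 ± 2.13%, and the 12 highest held 80.8 ± 2.46% (SD, n = 4). Ranks 3 to 5 were held by Slc25a39, Ucp2 and Slc25a5 in every library: Ucp2 took rank 4 in replicate 1, rank 5 in replicate 2 and rank 3 in replicates 3 and 4. Slc25a39 exceeded Slc25a5 in all 4 libraries, so it was Ucp2 that changed place between them.

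**Figure D2:**
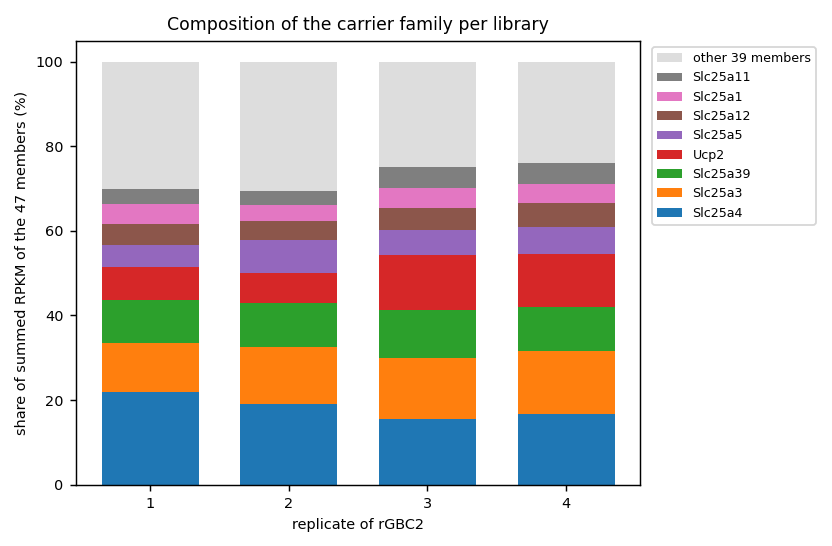
Share of summed carrier RPKM (%) in each rGBC2 replicate for the 8 carriers with the highest mean, with the other 39 members in light grey. The 4 lowest bands, Slc25a4, Slc25a3, Slc25a39 and Ucp2, together reach 50.2% to 54.4%, and the Ucp2 band is widest in replicates 3 and 4.

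Related carriers with similar substrates were compared inside each library, since both genes of a pair share its depth and composition. For 10 pairs an exact two-sided sign-flip test over the 4 libraries was run, and its smallest possible p is 1 in 8, so no pair could reach 0.05. The adjusted p was 0.139 for 9 pairs and 0.5 for the remaining pair. Differences are on the log2(RPKM + 1) scale, first gene minus second. In 6 pairs the first gene was higher in all 4 libraries, and in 3 pairs it was lower in all 4.

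Slc25a5 was below Slc25a4 by a mean difference of -1.51 ± 0.34 (SD, n = 4), and its RPKM was 0.246 to 0.397 times that of Slc25a4. Slc25a13 minus Slc25a12 gave -2.42 ± 0.62, so aralar transcripts exceeded citrin transcripts in 4 of 4 libraries. Slc25a28 minus Slc25a37 gave -0.97 ± 0.30, with the erythroid mitoferrin gene the higher in every library. The smallest spread between libraries was that of Slc25a11 and Slc25a10, whose difference was 1.96 ± 0.09 and whose RPKM ratio was 4.08 ± 0.252 (SD, n = 4 each). That ratio ran from 3.82 to 4.36, although both genes were higher in replicates 3 and 4.

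Ucp2 exceeded Ucp3 by 7.25 ± 0.55 and Slc25a39 exceeded Slc25a40 by 3.78 ± 0.74 (SD, n = 4 each). Slc25a22 minus Slc25a18 was 3.45 ± 0.94 and Slc25a15 minus Slc25a2 was 2.84 ± 0.33, 2 pairs with a partner close to 0. Where a partner is close to 0 the pseudocount sets much of the difference: with 0.1 in place of 1 it was 5.18 for Slc25a22 minus Slc25a18, 5.49 for Slc25a15 minus Slc25a2 and 10.2 for Ucp2 minus Ucp3. Slc25a36 minus Slc25a33 was 0.93 ± 0.72, and its mean was 0.58 without replicate 2. Slc25a24 minus Slc25a23 was -0.30 ± 0.53, with the first gene higher in 1 of 4 libraries (exact p = 0.5); the mean was -0.55 without replicate 2.

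**Figure D3:**
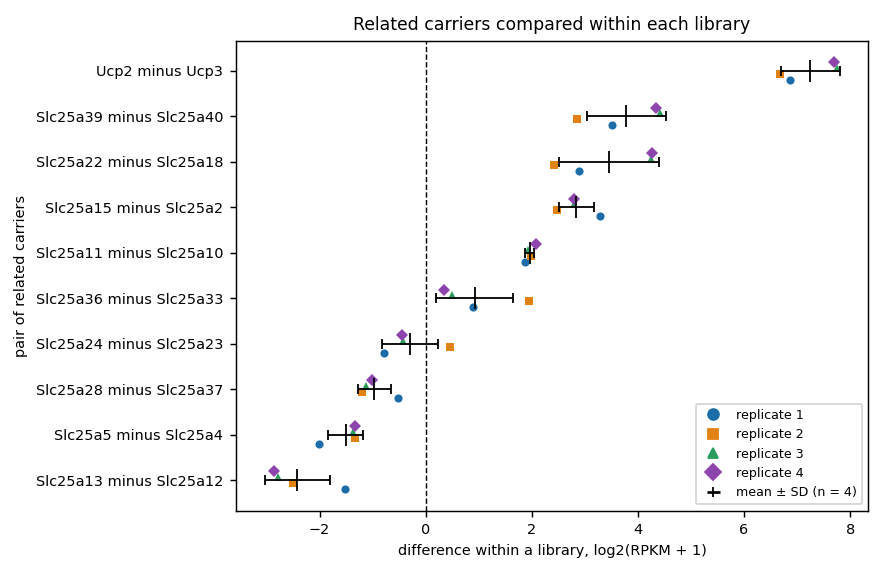
Difference between related carriers within each rGBC2 replicate (coloured points) on the log2(RPKM + 1) scale, with the mean and SD over 4 replicates in black; 0 on the x axis means equal levels. Points of a pair lie on 1 side of 0 except for Slc25a24 minus Slc25a23, where replicate 2 lies above 0.

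The carriers did not all follow the same order across libraries. Of the 38 with a mean of at least 1 RPKM, 15 had both replicate 3 and replicate 4 above replicates 1 and 2, which is 39.5%, against 29.7% of all genes at that level. A further 13, or 34.2%, had both below, against 41.2% of all such genes, and 10 overlapped. Slc25a11 and Slc25a22 belong to the 15, with Ucp2 the farthest apart on the log2(RPKM + 1) scale. As a ratio of mean RPKM, Slc25a38 was at 1.849, Slc25a29 at 1.846 and Ucp2 at 1.839. Slc25a36, Slc25a40, Slc25a24 and Slc25a32 belong to the 13, with Slc25a27 the farthest apart. These counts describe how the libraries lie and are no test of a condition, since all 4 carry the same label.

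Base composition moved with this division. Median GC content of the transcript was 55.0% for the 15 members higher in replicates 3 and 4, 45.4% for the 13 lower there and 49.4% for the 10 that overlapped, against 50.9% for all genes with a mean of at least 1 RPKM. The difference between replicates 3 and 4 and replicates 1 and 2 had a Spearman correlation with GC content of 0.509 over the 38 members and 0.571 over 11842 genes. With transcript length the values were -0.391 and -0.251. Genes in 1 library share its preparation and depth, so these correlations are descriptions, and the part that GC content or length had in the differences was not tested.

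**Figure D4:**
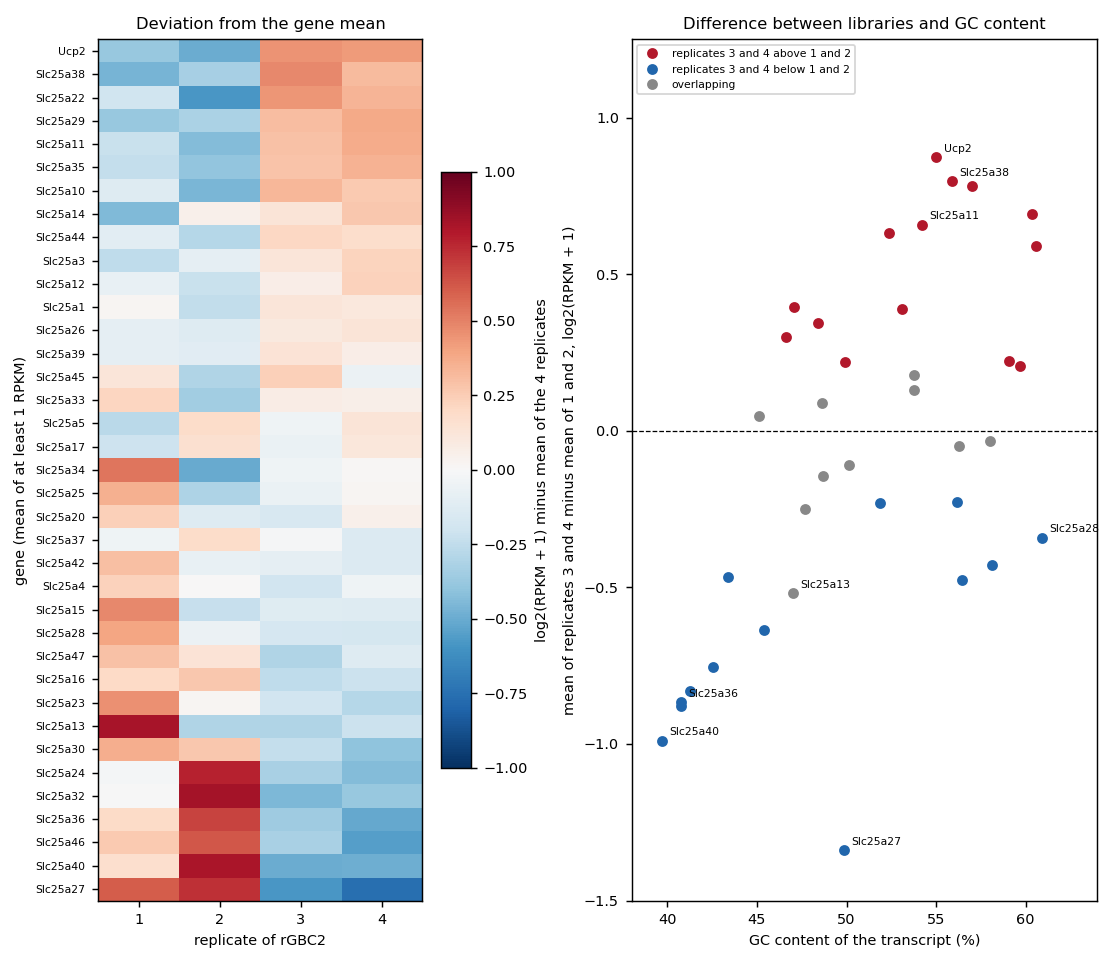
Left, deviation of each replicate from the gene's mean, log2(RPKM + 1), for 37 of the 38 carriers with a mean of at least 1 RPKM, ordered by the difference between libraries; right, that difference (mean of replicates 3 and 4 minus mean of 1 and 2) against transcript GC content (%), coloured by whether the libraries overlap. Ucp2 and Slc25a38 lie at the top, and Slc25a27 and Slc25a40 at the bottom, with GC-poor carriers mostly under 0.

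Spread between libraries was of ordinary size for the level of these genes. The median SD over libraries was 0.292 on the log2(RPKM + 1) scale for the 46 tested members, 0.256 for all genes tested and 0.292 for genes of like mean level. The highest library was under 1.5 times the lowest in 14 of 38 members, or 36.8%, against 33.7% of genes with a mean of at least 1 RPKM. It was over 2 times the lowest in 10 members, or 26.3%, against 34.5% of those genes. The largest SDs belonged to Slc25a27 at 0.78, Slc25a40 at 0.63, Slc25a32 at 0.59, Slc25a13 at 0.55 and Slc25a24 at 0.54.

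Promoter sequence is given for a pair of members that were both higher in replicates 3 and 4 than in replicates 1 and 2. Slc25a3 was the most abundant of the 15 members higher in replicates 3 and 4. Ucp2 was the farthest apart of the 15 on the log2(RPKM + 1) scale. The 250 bases before the start of each are shown on the gene's strand (RefSeq, GRCm38.p6). The Slc25a3 sequence lies at chr10:91123968-91124217 on the minus strand and the Ucp2 sequence at chr7:100493108-100493357 on the plus strand. Capitals mark GCGCNTGCG, the core of the motif bound by the mitochondrial gene regulator NRF1.
Slc25a3: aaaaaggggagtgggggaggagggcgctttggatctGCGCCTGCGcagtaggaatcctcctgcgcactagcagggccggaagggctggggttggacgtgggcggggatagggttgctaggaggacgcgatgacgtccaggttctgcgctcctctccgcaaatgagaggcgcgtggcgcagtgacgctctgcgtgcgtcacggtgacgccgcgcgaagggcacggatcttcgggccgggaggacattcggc
Ucp2: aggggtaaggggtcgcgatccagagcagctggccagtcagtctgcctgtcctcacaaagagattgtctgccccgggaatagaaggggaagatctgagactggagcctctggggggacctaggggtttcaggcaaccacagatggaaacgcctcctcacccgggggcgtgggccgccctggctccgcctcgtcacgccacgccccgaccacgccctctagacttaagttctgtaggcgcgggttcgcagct
The match in Slc25a3 begins 214 bases before the start, and Ucp2 had no match to these letters on either strand. Windows of 300 bases, 250 before to 50 after the start, were found for 37 members, 46 windows in all. GCGCNTGCG occurred on either strand in 2 of the 46, or 4.35%, those of Slc25a3 and Slc25a31, against 6.31% of all 32851 windows. AANATGGCG, the YY1 motif, occurred in 1, that of Slc25a3, or 2.17%, against 2.38% of all windows, and did not overlap the NRF1 match. TCAAGGTCA, the motif of oestrogen-related receptor alpha, occurred in none of the 46, against 0.423% of all windows. Median CpG count was 15 per window for the members, against 7 for all windows.

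Transcripts were also measured for proteins that work with the carriers. Of the 14 enzymes on either side of the carrier shuttles, 14 were above 1 RPKM (limma, adjusted as above), where 65.0% of all genes tested were, a share that also stands beside the next counts. The malate dehydrogenase genes Mdh1 and Mdh2 averaged 1692 ± 505 and 303 ± 97.7 RPKM, and Acly, which splits the citrate that Slc25a1 exports, averaged 288 ± 55.8 RPKM (SD, n = 4 each). Cpt1a and Cpt2, which act before and after Slc25a20, averaged 83.7 ± 22.4 and 87.7 ± 9.38 RPKM (SD, n = 4 each). Of 15 genes of carrier import and insertion, 14 were above 1 RPKM and Timm8a1 was on neither side. Timm22, the core of the insertion complex for carriers, averaged 24.2 ± 4.58 RPKM, and its chaperones Timm9 and Timm10 averaged 23.8 ± 4.48 and 23.4 ± 1.61 RPKM (SD, n = 4 each).

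Of 20 other mitochondrial transport genes, 19 were above 1 RPKM and Sfxn4 was on neither side. The pyruvate carrier subunit genes Brp44l and Brp44 averaged 329 ± 66.4 and 20.3 ± 1.79 RPKM, and the outer-membrane channel gene Vdac1 averaged 134 ± 14.1 RPKM (SD, n = 4 each). Brp44l thus had a higher mean than any of the 47 carriers. Some carrier-fold genes are missed by the symbols Slc25a and Ucp. Mtch1 averaged 148 ± 39.5 RPKM, Mcart1, now named Slc25a51, 76.0 ± 11.8 RPKM, and Mtch2 54.0 ± 4.94 RPKM (SD, n = 4 each). Mcart6, now named Slc25a53, averaged 0.51 ± 0.104 RPKM (SD, n = 4) and was below 1 RPKM (limma adjusted p = 0.000648). The gene 4930443G12Rik, now named Slc25a54, had 0.04 RPKM in replicate 2 and was listed at 0 in the other libraries.

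Marker genes of cell types were read beside the label of the cells. All 6 insulin-producing cell markers were above 1 RPKM, with a summed level of 9557 to 15655 RPKM. Among them, Pdx1 and Mafa were also introduced into the cells, and the cells were sorted by an Ins1 reporter. The levels of Pdx1, Mafa and Ins1 are therefore no independent check of the label. Of 6 biliary markers, 4 were above 1 RPKM and Sox9 and Cftr were on neither side, with a summed level of 1055 to 2159 RPKM. Tissues known for the low carriers differed in how many markers were above 1 RPKM. Over all genes tested, 65.0% were above 1 RPKM and 26.1% below. Neuron markers, of the tissue in which Slc25a27 is known, had 3 of 5 above, Gad1, Slc17a7 and Rbfox3. Of the others, Syt1 was below 1 RPKM and Snap25 was on neither side. The summed level of the 5 neuron markers was 14.1 to 40 RPKM. Brown adipocyte markers, Ucp1 among them, had 0 of 5 above and 4 below, with a summed level of 0.86 to 2.40 RPKM. Male germ cell markers, Slc25a31 among them, had 0 of 5 above, with a summed level of 0.26 to 1.43 RPKM and Tnp1 at 0. Muscle markers had 1 of 6 above, Acta1, with Myh4 and Tnnt3 at 0 and a summed level of 4.61 to 22.9 RPKM. Hepatocyte markers, Slc25a47 among them, had 2 of 6 above, Alb and Ttr, with Otc at 0 and a summed level of 22.8 to 57.0 RPKM. Erythroid markers had 0 of 5 above, with a summed level of 0.73 to 1.94 RPKM beside the 33.3 ± 3.30 RPKM of Slc25a37 (SD, n = 4). The remaining marker lists, of white adipocytes, leukocytes, endothelium and fibroblasts, had 0 of 4, 0 of 5, 0 of 4 and 0 of 4 genes above 1 RPKM. The part of other cell types in the carrier levels was not tested.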

How the data were processed

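RNA of 4 sorted rGBC2 samples was sequenced from TruSeq libraries, per the labels. The authors deposited RPKM per gene with 2 decimals; CASAVA 1.8.2, Bowtie and mm9 are named in the submitters' processing notes, whereas the counting program, its use of strand and its handling of multiply mapped reads were not given in the sources used here. Another 6 per-sample columns matched no sample of the series and were not used. Depth was estimated from low values above 0 among 993 olfactory receptor genes, which numbered 32, 24, 14 and 16 in replicates 1 to 4. It is the smallest number of reads that places these values on whole reads within 0.0051 RPKM, and a multiple of it would serve as well. The number of reads behind a level limits its precision by counting error only, and libraries may differ in other ways.

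With 1 group, each gene was tested against 1 RPKM on log2(RPKM + 1) with limma 3.58.1 (R 4.3.3, mean-variance trend, two-sided), with Benjamini-Hochberg adjustment over 16919 genes, leaving out 3458 listed at 0 everywhere; a call needed an adjusted p under 0.05. The pseudocount of 1 understates differences of low genes. The fit was tested on simulated data. Within-library differences of 10 pairs were tested by exact sign flips. Values per library are given for the 12 highest members, both genes of each pair, members typical of other tissues, members on neither side of 1 RPKM, and the 5 with the largest SD at a mean of at least 1 RPKM. Genes listed at 0 in a library have no mean ± SD, because an exact 0 can be a failed estimate in such a table. GC content, length and shared windows came from GENCODE M21 transcripts by RefSeq identifier, and all 47 members matched. Promoters came from RefSeq (GRCm38.p6) by symbol, with windows found for 37 members. Alternatives were other pseudocounts, filters, levels and scaling, no trend, and leaving out each replicate. The members and lists were chosen with earlier results of these data known. Markers and gene lists contain older symbols where the table uses them. Values of 1 member are not reported here; it remains in the counts, sums and medians.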

Additional observations from a re-analysis of the deposited data

Results flagged for a closer look

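In 5 carriers 1 library lay far from the other 3, by the gap to the nearest library divided by the whole range, past the 95% limit of Dixon's test for 4 samples. The ratio was 0.948 for Slc25a13, 0.878 for Slc25a15, 0.863 for Slc25a42 and 0.95 for Slc25a41, each with replicate 1 the highest. For Slc25a48 it was 0.924, with replicate 2 the highest. Chance flags about 1 in 20 groups. The 5 are 10.9% of the 46 carriers tested, against 12.6% of all 16919 genes tested that pass the same limit. At a mean of at least 1 RPKM it was 3 of 38 carriers, or 7.89%, against 7.16% of all genes at that level.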

How the results depend on the processing

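Across the alternatives, 34 to 36 carriers were above 1 RPKM where 35 were in the fit reported, and the number below 1 RPKM was 5 to 7 except in the cases given next. It was 3 when genes under a mean of 0.1 RPKM were left out, since Ucp3, Slc25a2 and Slc25a31 were then not tested, and 9 when tested against 2 RPKM. Of 46 carriers tested, 6 changed their call in some setting: Slc25a18, Slc25a34, Slc25a43, Slc25a45, Slc25a47 and Slc25a48. Signs on the log2 scale turned as follows: against 2 RPKM, Slc25a47 gave -0.23, Slc25a27 -0.26, Slc25a45 -0.054 and Slc25a34 -0.57; against 0.5 RPKM, Slc25a48 gave 0.24 and Slc25a43 0.24; Slc25a34 gave -0.043 with a pseudocount of 0.1 and ran from -0.16 to 0.18 over the fits that left out 1 replicate, lowest without replicate 1. Moving the level tested shifts every difference by construction. The adjusted p of Slc25a47 was 0.0496 with the 0.1 RPKM filter, 0.0414 with no trend and 0.0463 with upper quartile scaling, and that of Slc25a18 was 0.0834 with no filter and 0.0712 with no trend; the cause was not tested. The median SD of carriers was 0.393 with a pseudocount of 0.1 and ran from 0.212 to 0.347 over the fits that left out 1 replicate. Replicates 3 and 4 were averaged into 1 sample as a setting chosen after seeing the data, which left 34 carriers above and 5 below 1 RPKM. The pair differences kept their sign under every pseudocount and with each replicate left out. No paired analysis was possible because the series holds 1 group. At these depths, levels near 0.1 RPKM rest on few reads, so no order among Ucp1, Ucp3, Slc25a2, Slc25a31 and Slc25a41 was read from them.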
